A study of Mus musculus with 12 samples.

Results

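*Snord118*, *Snord13*, *Rmrp*, *Rn7sk*, *Rny1*, *Rny3* and *Vaultrc5* are small noncoding RNAs that are each transcribed from a promoter of their own, in contrast to most snoRNAs, which are cut from the introns of a host gene. They were taken by gene symbol from the count files, which list 49585 genes, of which 49326 matched the annotation used here. The choice was made with earlier genotype comparisons of these libraries known, so the genotype differences of the 7 RNAs are given below as a description and carry no test. All 7 had counts in every library and passed the filter on low counts in both kinds of library.

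The libraries were made from naive CD4 T cells of female mouse lymph nodes, isolated with beads and activated for 20 h on plates coated with antibodies to CD3 (5 ug/ml) and CD28 (1 ug/ml), with 0.1 mg/ml cycloheximide in the last 1 min. Control cells carried floxed alleles of *Rnmt* without the Cre transgene (*Rnmt* fl/fl CD4cre -), and *Rnmt* cKO cells carried the same alleles with it (*Rnmt* fl/fl CD4cre +), so the deletion is driven by the CD4 promoter, begins in the thymus and is not limited to the time of activation. For each genotype there were 3 libraries of total cytoplasmic RNA (hereafter total RNA) and 3 of ribosome protected fragments (RPF), which are the pieces of RNA left after nuclease digestion. Between 15079703 and 22629563 reads were counted on genes in the total RNA libraries and between 4123271 and 10661356 in those of RPF, where *Rnmt* cKO replicate 3 was the shallowest.

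The 7-methylguanosine cap is added to the start of RNA polymerase II transcripts, and RNMT is the enzyme that places its methyl group. On small noncoding RNAs with their own polymerase II promoters, such as *Snord118* and *Snord13*, this cap is further methylated to trimethylguanosine by TGS1. RNA polymerase III transcripts do not receive that cap: *Rmrp*, *Rny1*, *Rny3* and *Vaultrc5* begin with a triphosphate, and *Rn7sk* with a methylated phosphate placed by MEPCE. None of the 7 is translated, and reads on them in an RPF library count protected fragments of the selected size, not ribosomes.

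*Snord118* is a box C/D snoRNA needed for the maturation of the rRNAs of the large ribosomal subunit, and *Snord13* is a box C/D RNA that guides acetylation of the small subunit rRNA. They are the RNAs whose level differed most between genotypes, and *Snord118* is shown for that reason. The capitals mark the first TGATGA (box C) and the last CTGA (box D), and the sequence is written 5′ to 3′ as DNA and comes from the GENCODE vM21 transcripts of the GRCm38 genome:
*Snord118*: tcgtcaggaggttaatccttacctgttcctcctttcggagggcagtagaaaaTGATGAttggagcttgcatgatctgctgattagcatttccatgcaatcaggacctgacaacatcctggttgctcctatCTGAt
In *Snord118*, which is 135 bases long and lies on chromosome 11 at 69073427 to 69073561 (+ strand), TGATGA begins at base 53 and the last CTGA at base 131. A TGATGA followed by a CTGA, read on the transcript strand alone, was present in 24.0% of the 1507 annotated snoRNA transcripts.

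Among the polymerase III RNAs, the Y RNAs *Rny1* and *Rny3* are bound by the Ro60 and La proteins and lie 6.34 kb apart on chromosome 6, at 47788069 to 47788180 (- strand, 112 bases) and 47781624 to 47781725 (+ strand, 102 bases). They are shown as examples of transcripts that end in the run of T at which polymerase III stops, here in capitals:
*Rny1*: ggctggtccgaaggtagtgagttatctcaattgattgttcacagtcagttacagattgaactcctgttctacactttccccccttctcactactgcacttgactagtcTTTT
*Rny3*: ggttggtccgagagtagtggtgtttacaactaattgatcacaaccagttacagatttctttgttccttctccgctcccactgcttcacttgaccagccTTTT
*Vaultrc5*, the vault RNA of the vault particle (143 bases), also ends in TTTT, as do 2.85% of the 562 annotated misc_RNA transcripts and 0.199% of the snoRNA transcripts. *Rmrp*, the RNA of RNase MRP, an endonuclease that cuts precursor rRNA, is 271 bases long (chromosome 4, 43492788 to 43493058, - strand). *Rn7sk*, the 7SK RNA that holds the elongation kinase P-TEFb in an inactive particle, is 331 bases long (chromosome 9, 78175303 to 78175633, - strand). Neither annotated transcript ends in TTTT.

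The counts are of uniquely aligned reads, so sequence shared with other genes bears on the levels. No run of 30 bases of *Snord13*, *Rny3* or *Vaultrc5* was found in another annotated gene. For *Snord118*, 35 of 106 such runs were also in *Gm24208*, which had at most 7 counts in any library, and for *Rny1*, 32 of 83 were in *Gm26168*. For *Rn7sk*, 222 of 302 runs were shared with 30 other genes, so its level is a minimum. For *Rmrp*, 242 of 242 runs were in other annotated genes, which were *Ccdc107* and a second *Rmrp* gene. This second gene spans it on the same strand and was absent from the count files. *Rmrp* partly overlaps *Ccdc107* on the opposite strand, and the counts of the gene's own strand separate the pair. Over the 12 libraries the 7 RNAs had 2610583 counts on their own strand and 11 on the other.

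The targeted gene was lower in every *Rnmt* cKO library. *Rnmt* had 94.5, 94.0 and 91.5 counts per 1000000 gene counts (CPM) in the control total RNA libraries and 28.6, 33.4 and 31.1 in those of *Rnmt* cKO. In RPF it had 104, 85.9 and 98.2 CPM in controls and 10.8, 10.4 and 9.46 CPM in *Rnmt* cKO cells. In both kinds of library the genotypes did not overlap.

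The polymerase II RNAs were higher in *Rnmt* cKO cells, in total RNA and in RPF. *Snord118* had 65.2, 56.5 and 53.1 CPM in control total RNA and 177, 176 and 204 CPM in that of *Rnmt* cKO cells. The lowest *Rnmt* cKO library was thus well above the highest control, and the fold change was 3.11 (log2 1.64, SE 0.090). *Snord13* had 34.5, 35.9 and 36.7 CPM in control total RNA and 160, 125 and 161 CPM in *Rnmt* cKO total RNA. It was 4.07-fold higher (log2 2.02, SE 0.12), again without overlap. CPM are shares of each library, so a change is relative to the other RNAs of the library, and in bulk samples a different number of cells and a different amount of RNA per cell cannot be told apart.

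In RPF, *Snord118* had 17.1, 36.3 and 45.7 CPM in controls and 179, 283 and 810 CPM in *Rnmt* cKO cells, from 182 to 375 and from 1493 to 3338 counts per library. The groups were far apart, and the *Rnmt* cKO libraries were also far from each other. The fold change was 12.8 (log2 3.68, SE 0.61), and 6.97 (log2 2.80, SE 0.34) without *Rnmt* cKO replicate 3, the highest and the shallowest library. *Snord13* had 27.6, 17.4 and 24.1 CPM in control RPF and 109, 113 and 316 CPM in that of *Rnmt* cKO cells. Its fold change of 7.56 (log2 2.92, SE 0.44) became 4.69 (log2 2.23, SE 0.15) without the same library, which was the highest for both RNAs.

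Of the polymerase III RNAs, *Rmrp*, *Vaultrc5* and *Rn7sk* were lower in the total RNA of *Rnmt* cKO cells. *Rmrp* had 7501, 7171 and 6175 CPM in control total RNA and 4485, 3993 and 4878 CPM in *Rnmt* cKO total RNA, 1.60-fold lower (log2 -0.67, SE 0.095). *Vaultrc5* had 492, 445 and 515 CPM in controls and 283, 304 and 369 CPM in *Rnmt* cKO cells, 1.56-fold lower (log2 -0.64, SE 0.10). *Rn7sk*, the most abundant of the 7, had 17220, 17976 and 16305 CPM in controls and 14516, 12395 and 14099 CPM in *Rnmt* cKO cells, 1.28-fold lower (log2 -0.36, SE 0.077). The genotypes did not overlap for any of the 3. When libraries were scaled to the other small RNAs instead of all genes, which raised the median of all genes by 0.49 on the log2 scale, *Rmrp* and *Vaultrc5* were at -0.20 and -0.15 and *Rn7sk* at 0.12, while *Snord118* and *Snord13* were at 2.12 and 2.498.

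The Y RNAs overlapped between genotypes in total RNA. *Rny1* had 91.1, 87.9 and 123.3 CPM in controls and 76.7, 85.8 and 102 CPM in *Rnmt* cKO cells (log2 -0.23, SE 0.15). *Rny3* had 81.5, 76.4 and 103 CPM in controls and 77.1, 71.7 and 85.9 CPM in *Rnmt* cKO cells (log2 -0.19, SE 0.13). In each genotype both were highest in replicate 3, and when scaled to the other small RNAs their differences turned positive, to 0.26 and 0.30.

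In RPF the polymerase III RNAs overlapped between genotypes. *Rmrp* had 1082, 1035 and 1291 CPM in control RPF and 996, 1326 and 1284 CPM in that of *Rnmt* cKO cells (log2 0.06, interval of 2 standard errors either way -0.20 to 0.32). *Vaultrc5* had 468, 922 and 783 CPM in controls and 891, 508 and 901 CPM in *Rnmt* cKO cells (log2 0.06, interval -0.50 to 0.62). *Rny1* had 147, 300.02 and 261 CPM in controls and 309, 198 and 324 CPM in *Rnmt* cKO cells (log2 0.20, interval -0.34 to 0.75). These intervals leave room for changes of either sign, least so for *Rmrp*. *Rny3* had 59.4, 62.6 and 62.9 CPM in control RPF, the closest agreement among the RPF groups, and 63.8, 45.8 and 80.8 CPM in *Rnmt* cKO cells (log2 0.00, interval -0.36 to 0.37). *Rn7sk* had 25.9, 44.2 and 35.5 CPM in controls and 31.5, 57.1 and 107 CPM in *Rnmt* cKO cells, which overlapped only through *Rnmt* cKO replicate 1 (log2 0.85, SE 0.40). It was at log2 1.20 (SE 0.30) without that library and 0.32 (SE 0.28) without *Rnmt* cKO replicate 3.

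At an adjusted p under 0.05 in the fit across all genes, 2 of the 7 RNAs were higher and 3 lower in the total RNA of *Rnmt* cKO cells, where 26.3% of the 11519 genes tested were higher and 28.0% lower. None of the 3 lower calls stood when libraries were scaled to the other small RNAs. The genotypes did not overlap for 5 of the 7, as for 62.3% of all genes tested. In RPF, 2 were higher and none lower, with 14.1% of 11428 genes higher and 15.7% lower, and 2 did not overlap, as for 46.5% of all genes. The comparison of the genotype difference between RPF and total RNA, as an interaction over all 12 libraries, was past the threshold for *Rmrp* alone (log2 0.74, SE 0.18), where 3.24% of 10668 genes were higher and 6.57% lower. It was no longer past it when scaled to the other small RNAs (0.32) or without control replicate 1 (0.63), control replicate 2 (0.67) or *Rnmt* cKO replicate 2 (0.57). That of *Snord118* was 2.04 (SE 0.65) and crossed the threshold with the animal as a block (1.81, SE 0.52). For *Snord13* it was 0.88 (SE 0.49). Without *Rnmt* cKO replicate 3, the values were 1.22 (SE 0.41) for *Snord118* and 0.25 (SE 0.21) for *Snord13*. The value was 1.21 (SE 0.45) for *Rn7sk*, 0.70 (SE 0.34) for *Vaultrc5*, 0.43 (SE 0.35) for *Rny1* and 0.19 (SE 0.24) for *Rny3*. Among all genes, scaling to the other small RNAs gave 6601 higher and 707 lower in total RNA against 3024 and 3220, 1019 and 480 in RPF against 1612 and 1796, and 30 and 891 in the interaction against 346 and 701. The RNAs were chosen on these comparisons, so nothing is read from their counts.

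**Figure D1:**
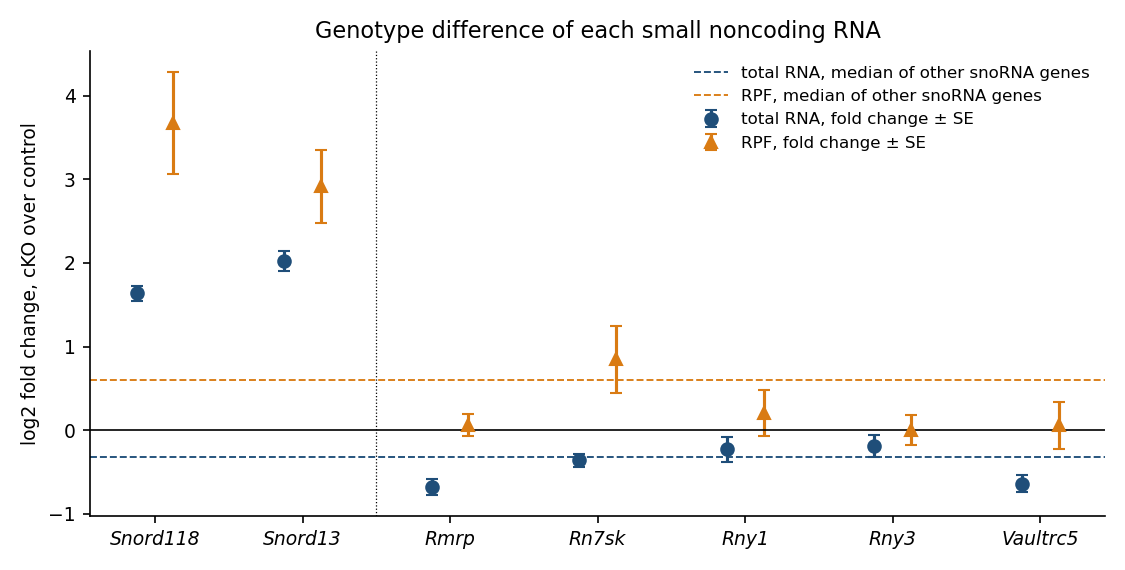
Log2 fold change of *Rnmt* cKO over control for each RNA in total RNA (blue circles) and RPF (orange triangles), with standard errors from the fit and dashed lines at the median of the other snoRNA genes tested. The polymerase II RNAs are at 1.64 and 2.02 in total RNA, while the polymerase III RNAs lie between -0.67 and -0.19.

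The contrast between the polymerases was also formed within each library, as the ratio of the summed CPM of the 2 polymerase II RNAs to that of the 5 polymerase III RNAs, which does not depend on how libraries are scaled. In total RNA its log2 was -7.99, -8.12 and -8.01 in controls and -5.85, -5.81 and -5.74 in *Rnmt* cKO cells. The libraries of a genotype lay within 0.13 or less of each other and the genotypes were 2.24 apart (SE 0.051, 4.73-fold). In RPF it was -5.32, -5.46 and -5.12 in controls and -2.99, -2.43 and -1.26 in *Rnmt* cKO cells. The difference was 3.07 (SE 0.52, 8.42-fold), or 2.59 (6.03-fold) without *Rnmt* cKO replicate 3. *Rn7sk* makes up most of the polymerase III sum in total RNA, and without it the difference in total RNA was 2.46 (5.48-fold).

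Per kilobase of transcript, the order of levels in control total RNA was *Rn7sk* at 51863 ± 2527 (SD, n = 3) CPM per kb, *Rmrp* at 25642 ± 2548, *Vaultrc5* at 3385 ± 248, *Rny1* at 900 ± 175, *Rny3* at 854 ± 141, *Snord118* at 432 ± 46.3 and *Snord13* at 343 ± 11.0. The Y RNAs did not differ beyond their spread, and the other neighbours did. In *Rnmt* cKO total RNA, *Snord13* (1428 ± 200 CPM per kb) and *Snord118* (1376 ± 115) stood above *Rny1* (788 ± 115) and *Rny3* (767 ± 70.6), without differing beyond their own spread. In control RPF, *Vaultrc5* (5066 ± 1627 CPM per kb) and *Rmrp* (4191 ± 502) had the highest means, without differing beyond their spread, and *Rn7sk* was the lowest (106 ± 27.7). The 7 RNAs together held 2.49% of gene counts in control total RNA and 1.89% in that of *Rnmt* cKO cells. In RPF they held 0.225% and 0.298%, of which *Snord118* made up 1.42% in controls and 13.1% in *Rnmt* cKO cells.

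Relative to total RNA, the RNAs differed widely in how much of them was found in RPF libraries. In control cells the ratio of RPF to total RNA CPM was 2.38 ± 0.93 (SD, n = 3) for *Rny1*, 1.51 ± 0.56 for *Vaultrc5*, 0.719 ± 0.11 for *Rny3*, 0.647 ± 0.16 for *Snord13*, 0.588 ± 0.30 for *Snord118*, 0.166 ± 0.037 for *Rmrp* and 0.00205 ± 0.00049 for *Rn7sk*. The 7SK RNA was thus nearly lost from the RPF libraries, with 263 to 581 counts in each, and the Y and vault RNAs were not. For *Snord118* the ratio was 0.262, 0.642 and 0.860 in controls and 1.01, 1.61 and 3.97 in *Rnmt* cKO cells. For *Rmrp* it was 0.144, 0.144 and 0.209 in controls and 0.222, 0.332 and 0.263 in *Rnmt* cKO cells. The genotypes did not overlap for either, although the highest control of *Rmrp* was close to the lowest *Rnmt* cKO value.

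The other snoRNAs were a class in which *Snord118* and *Snord13* stood at one end in total RNA and in RPF. Of the 106 other snoRNA genes tested in total RNA, 3 were higher in *Rnmt* cKO cells and 40 lower, with a median log2 difference of -0.33, against a median of 0.00 for protein-coding genes. Of all genes, 26.3% were higher and 28.0% lower. These snoRNA calls are given with scaling to all genes only. Scaling to the other small RNAs moved the median of all genes to 0.49 in total RNA. *Snord13* ranked 1 and *Snord118* ranked 3 from the top of the 108 snoRNA genes tested there. In RPF, 24 of 114 genes were higher and 3 lower, with a median of 0.60, where 14.1% of all genes were higher and 15.7% lower, and *Snord118* and *Snord13* ranked 2 and 3 of 116. By the interaction, *Snord118* ranked 3 and *Snord13* ranked 52 of 97. The other snoRNAs held 0.254 ± 0.021% of gene counts in control total RNA and 0.140 ± 0.021% in *Rnmt* cKO total RNA (SD, n = 3). In RPF their share was 0.842, 0.957 and 1.01% in controls and 0.971, 1.01 and 1.44% in *Rnmt* cKO cells, and the genotypes overlapped. The highest share was in *Rnmt* cKO replicate 3, the library where *Snord118* and *Snord13* were also highest.

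Of 16 further small RNAs with promoters of their own, 8 were tested in total RNA, of which 1 was higher and 3 lower in *Rnmt* cKO cells, and 5 in RPF, of which 2 were higher. Of all genes, 26.3% were higher and 28.0% lower in total RNA, and 14.1% and 15.7% in RPF. The values of these small RNAs are given with scaling to all genes only. Scaling to the other small RNAs moved the median of all genes to 0.49 in total RNA. *Rnu73b*, a snoRNA that had been listed with these small RNAs but lies within the host gene *Rps3a1* on the same strand, was left out of their counts after its values were seen. It was at -0.23 (SE 0.26) in total RNA, which did not pass, and higher in RPF (0.89, SE 0.26). *Rpph1*, the polymerase III RNA of RNase P, which shares proteins with RNase MRP, had 14830, 15894 and 12607 CPM in control total RNA and 9196, 8640 and 11344 CPM in *Rnmt* cKO cells. It was lower there (log2 -0.60, SE 0.11), as *Rmrp* was, and in RPF it was at 0.35 (SE 0.16) and did not pass the test. Among polymerase II RNAs of the minor spliceosome, *Rnu11* was lower in total RNA (log2 -0.96, SE 0.14), and *Rnu12* was lower in total RNA (-0.47, SE 0.12) and higher in RPF (1.41, SE 0.40). *Terc*, the RNA of telomerase, was at 0.29 (SE 0.12) in total RNA, which did not pass, and higher in RPF (0.88, SE 0.17). *Rnu1a1* was higher in total RNA (0.76, SE 0.22) at a level of 2.63 CPM in controls. The polymerase II small RNAs tested did not all move as *Snord118* and *Snord13* did.

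*Snord118* lies 134 bp from *Tmem107*, a gene of the same strand. *Tmem107* had 3.31, 3.38 and 2.77 CPM in control total RNA and 1.06, 1.33 and 1.19 CPM in that of *Rnmt* cKO cells, the direction opposite to *Snord118*. It fell (log2 -1.43, SE 0.18), and its RPF value of -0.85 (SE 0.28) did not pass the test. *Tti2*, 348 bp from *Snord13*, was at -0.07 (SE 0.079) in total RNA. *Ccdc107*, which overlaps *Rmrp*, was lower in total RNA (-0.44, SE 0.092), as *Rmrp* was. *C920006O11Rik*, 281 bp from *Rn7sk*, was higher (0.95, SE 0.18), unlike *Rn7sk*, and *Ick* (0.15, SE 0.12) and *Zmat2* (-0.17, SE 0.069), the other genes tested within 5 kb of an RNA of the 7, did not pass.

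Genes whose log2 CPM varied most like that of an RNA were sought over all 12 libraries after removal of the mean of each kind of library, among 6609 genes whose log2 CPM averaged 4 or more in both kinds. For *Snord118* these were *Cdc16* (Pearson r = 0.97), *Mon1b* (0.97) and *1110065P20Rik* (0.96). For *Snord13* they were *Foxred1* (0.98), *Serinc5* (0.98) and *Bag5* (0.97), and for *Rmrp* *Rpl8* (0.96), *Rpl37* (0.96) and *Rps10* (0.95), all 3 of which encode ribosomal proteins. The means of the genotypes were not removed, so these correlations include the genotype differences known when the RNAs were chosen. They are a description over libraries that also differ in depth. *Rpl8* had a mean of 1917 CPM in control total RNA and 1270 CPM in that of *Rnmt* cKO cells, with 1757 and 1919 CPM in RPF.

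The genes of the proteins that make, bind or degrade these RNAs were taken from 8 lists of 115 genes, of which 114 were tested. In total RNA 42.1% (48 genes) were higher and 14.0% (16) lower in *Rnmt* cKO cells, beside 26.3% and 28.0% of all genes tested. In RPF 14.9% (17) were higher and 17.5% (20) lower, near the 14.1% and 15.7% of all genes. In the interaction 2 were higher and 15.8% (18) lower, beside 3.24% and 6.57% of all genes, with negative values for a smaller difference in RPF than in total RNA. Scaled to the other small RNAs, 91 were higher and 1 lower in total RNA, 1 higher and none lower in RPF, and none higher and 21 lower in the interaction, so the genes given below as lower in total RNA or as changed in RPF are nearly all called only with scaling to all genes. Tests are edgeR's, adjusted over all genes.

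Of the 25 genes of box C/D snoRNP proteins and their assembly, 9 were higher and 4 lower in total RNA (median 0.13), and 4 were higher and 3 lower in RPF. *Nop56*, a core protein of these particles, rose in total RNA (log2 1.07, SE 0.054) and RPF (0.47, SE 0.076). *Tgs1*, which encodes the trimethylguanosine synthase, rose in total RNA from a mean of 29.6 to 58.2 CPM (0.94, SE 0.18, edgeR adjusted p = 0.0031) but was at 0.04 (SE 0.077) in RPF. *Nufip1*, an assembly factor, rose in total RNA (0.66, SE 0.076), and so did *Phax*, the adaptor for nuclear transport of capped small RNAs (0.30, SE 0.057). *Lsm6* and *Lsm4*, subunits of the rings that bind the ends of small RNAs, fell in RPF (-0.53, SE 0.17, and -0.39, SE 0.063).

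Of the 21 genes of the factors of snRNA-type promoters and of Integrator, the complex that cuts the ends of polymerase II small RNAs, 8 were higher and 4 lower in total RNA and 1 higher and 6 lower in RPF. *Ints12* rose in total RNA (1.08, SE 0.10) and fell in RPF (-0.40, SE 0.11), and its interaction was -1.48. The promoter factor *Zfp143* rose in total RNA (0.56, SE 0.084), whereas *Ints9* fell (-0.54, SE 0.11). *Ints7* and *Snapc5* fell in RPF (-0.51, SE 0.054, and -0.50, SE 0.081), and *Snapc4* rose there (0.45, SE 0.098).

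Of the 25 genes of RNA polymerase III and its general factors, 13 were higher and 3 lower in total RNA (median 0.26), and 5 were higher and 2 lower in RPF (median 0.17). *Polr3d* rose in total RNA (1.07, SE 0.083), as did *Polr3e* (0.57, SE 0.058). *Polr3g* and *Polr3gl*, alternative subunits of the enzyme, fell in total RNA (-0.53, SE 0.064, and -1.44, SE 0.17) and in RPF (-0.37, SE 0.11, and -1.29, SE 0.40). *Brf1*, an initiation factor of the enzyme, was at -0.08 (SE 0.068) in total RNA and -0.02 (SE 0.13) in RPF.

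Of the 11 genes of RNase MRP and RNase P proteins, *Pop1* (0.39, SE 0.064) and *Rpp40* (0.26, SE 0.074) rose in total RNA, opposite to *Rmrp*, and *Rpp14* rose in RPF (0.28, SE 0.068). Of the 7 genes of the 7SK particle and P-TEFb, *Cdk9*, the kinase (0.90, SE 0.16), *Ccnt1*, its cyclin (0.73, SE 0.062), and *Hexim2* (0.55, SE 0.17) rose in total RNA. *Larp7*, which binds the end of the 7SK RNA, was at -0.05 (SE 0.064) in total RNA and fell in RPF (-0.36, SE 0.075), and *Mepce* was at 0.03 (SE 0.057) and 0.12 (SE 0.061). *Trove2*, the gene of Ro60, fell in total RNA from 9.37 to 7.19 CPM (-0.42, SE 0.11), where *Ssb*, the gene of La, was at 0.06 (SE 0.055). Another gene of their list, not reported here, passed the threshold in total RNA and in RPF. The 3 genes of that list summed to a mean of 575 CPM in control and 636 CPM in *Rnmt* cKO total RNA. *Trove2* is a small part of these sums, so they cannot show whether the list moved with it. In RPF the sums of the 3 genes were 968 and 896 CPM. Of the vault proteins, *Mvp*, the major one, was at -0.01 (SE 0.074) in total RNA, and *Tep1* fell in total RNA (-0.38, SE 0.13) and RPF (-0.71, SE 0.12), with *Parp4* lower in RPF (-0.43, SE 0.085).

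Of 19 tested genes for the trimming, decapping and decay of small RNAs, 12 were higher and 3 lower in total RNA (median 0.23), and 4 were higher and 4 lower in RPF. *Nudt16*, a decapping enzyme known for its binding of *Snord118*, rose in total RNA from a mean of 15.8 to 24.7 CPM (0.61, SE 0.13) and in RPF (0.52, SE 0.16). *Parn*, a deadenylase that trims small RNAs, rose in both (0.71, SE 0.10, and 0.42, SE 0.064). *Exosc10*, the nuclease of the nuclear exosome, rose in total RNA (0.65, SE 0.068) and fell in RPF (-0.40, SE 0.073). *Xrn1* fell in RPF (-0.62, SE 0.085), and *Dcp2*, which removes caps from mRNA, rose there (0.63, SE 0.094).

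**Figure D2:**
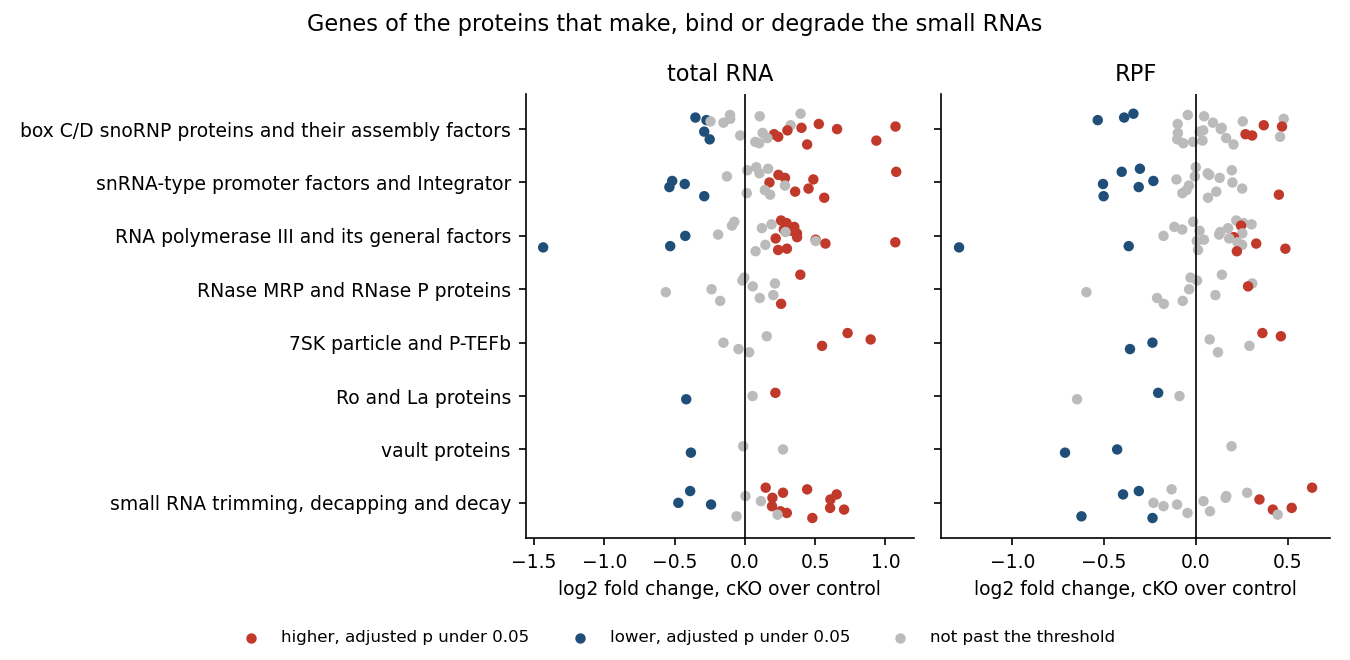
Log2 fold change of *Rnmt* cKO over control for each tested gene of the 8 lists of proteins, in total RNA and RPF, with red for genes higher and blue for genes lower at an adjusted p under 0.05. In total RNA 48 genes are red and 16 blue, and in RPF 17 and 20.

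The labelled cell type was checked with markers of CD4 T cells, which summed to 2152 to 2328 CPM in control total RNA and 1826 to 2099 CPM in that of *Rnmt* cKO cells, without overlap. In RPF these markers summed to 4498, 3811 and 4139 CPM and 3579, 3138 and 3504 CPM, also lower without overlap. *Cd3g* had 463, 456 and 415 CPM in control total RNA and 189, 167 and 226 CPM in that of *Rnmt* cKO cells. *Trac* was also lower there without overlap, while *Cd3e*, *Cd4* and *Cd28* overlapped. The 5 B cell markers, of which *Ms4a1* was the most abundant, summed to 9.44, 6.03 and 32.7 CPM in controls and 84.4, 108 and 19.6 CPM in *Rnmt* cKO cells, and none was at 0 in all libraries. In RPF they were at 11.7, 8.40 and 40.9 CPM and 131, 142 and 21.8 CPM. The genotypes overlapped in both, with *Rnmt* cKO replicate 3 below control replicate 3. The 2 CD8 T cell markers summed to 21.2, 21.4 and 40.5 CPM and 25.8, 22.0 and 10.1 CPM in total RNA. The 5 myeloid markers, of which 1 was at 0 in all libraries, summed to 1.47, 1.06 and 0.994 CPM in control total RNA and 2.32, 1.28 and 1.02 CPM in that of *Rnmt* cKO cells. In RPF they were at 4.41, 4.13 and 3.41 CPM and 2.99, 2.95 and 2.43 CPM, lower in *Rnmt* cKO cells without overlap. The 3 NK cell markers, led by *Ncr1*, summed to 0.157, 0.159 and 0.105 CPM in control total RNA and 0.796, 1.33 and 0.707 CPM in that of *Rnmt* cKO cells, or 2 to 3 counts against 12 to 25. In RPF they were at 0, 0 and 0.243 CPM and 1.08, 1.77 and 0.970 CPM. The NK cell markers were thus low but higher in every *Rnmt* cKO library than in any control of its kind. *Malat1*, an RNA held in the nucleus, had 1783, 1500 and 1875 CPM in control total RNA and 1054, 966 and 923 CPM in *Rnmt* cKO cells and fell (log2 -0.84, SE 0.11). In RPF it did not pass the test (0.22, SE 0.26). LincRNA held 0.804% of gene counts in *Rnmt* cKO RPF replicate 3 and 0.167 to 0.295% in the other RPF libraries, and 0.670% in *Rnmt* cKO total RNA replicate 1 and 0.306 to 0.394% in the other total RNA libraries. Reads in no annotated gene of their strand made up 5.34, 5.63 and 5.997% of all reads in control total RNA and 8.21, 8.14 and 7.24% in that of *Rnmt* cKO cells, without overlap. Reads aligned in several places made up 30.1, 29.3 and 28.7% and 25.1, 24.3 and 27.3%, also without overlap. In RPF, *Rnmt* cKO replicate 3 had the highest share of both, with 6.19% in no gene against at most 3.81% in the other RPF libraries. The part of these differences in the levels of the 7 RNAs was not tested.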

How the data were processed

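Libraries of total cytoplasmic RNA and RPF from 3 control and 3 *Rnmt* cKO samples were prepared by the authors with the Illumina Truseq Ribo Profile (mammalian) kit. STAR 2.5.2b gave the authors' counts, on mm10 and the basic gene set of GENCODE vM12. Only second reads entered it, because read 1 was of no use, and cutadapt (adapters) and Bowtie (rRNA and tRNA) had been applied to them before. The deposited values are whole-number counts of uniquely aligned reads per gene, with no normalization, for either strand and without regard to strand. Sense-strand counts were used here. Of all reads, 24.3 to 30.1% in total RNA and 22.9 to 31.0% in RPF aligned in several places and were not counted, which lowers genes with copies. A deposited table of the authors' normalized values and of their edgeR and RiboDiff comparisons was not used.

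Symbols, positions and biotypes came from GENCODE vM21 (GRCm38), which matched 49326 of 49585 gene identifiers. The 7 RNAs, the lists and the tests were chosen with earlier results of these data known. Genes exceeding 1 CPM in 3 or more of the 6 libraries of a kind were tested in edgeR 4.0.16 (R 4.3.3, limma 3.58.1) by quasi-likelihood after TMM scaling. How far the genotype difference depended on the kind of library was tested as an interaction in all 12 libraries, scaled by TMM separately for total RNA and RPF. A gene passed at a Benjamini-Hochberg adjusted p under 0.05 over all genes tested. Standard errors of log2 differences had medians of 0.101 in total RNA, 0.124 in RPF and 0.160 in the interaction. Each fit was also run on simulated data, whose outcome is not given here, so nothing is read from it. The replicates are separate samples of each genotype, whose source animals the labels do not name. Same-numbered total RNA and RPF libraries of a genotype deviated from their group means together (r = 0.11 to 0.38, each above 0.1), so these numbers were taken as animals, whereas same numbers of the 2 genotypes did not pair the samples.

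Named are the 7 RNAs, annotated genes within 5 kb of them, from each list the 3 largest changes past the threshold without overlap in total RNA and in RPF, *Tgs1*, *Phax*, *Nudt16*, *Larp7*, *Mepce*, *Ssb*, Ro60, *Mvp*, *Brf1* and *Pop1*, and the 3 genes most like *Snord118*, *Snord13* and *Rmrp*. A gene of this rule and a sequence are not reported here. The alternatives tried were DESeq2 1.42.0, library size alone, no filter, at least 10 counts, counts without regard to strand, scaling to the other small RNAs, replicate and animal blocks, each library left out and other sums of polymerase III RNAs. Figures were drawn with matplotlib 3.10.9 in Python 3.11.15 with pandas 2.3.3 and numpy 2.4.6.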

Additional observations from a re-analysis of the deposited data

Results flagged for a closer look

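*Rmrp* was picked out for a genotype difference that differed between total RNA (log2 -0.67) and RPF (0.06). The gap of 0.74 (SE 0.18) is a description with no test, since *Rmrp* was chosen on these comparisons, and it fell to 0.32 when scaled to the other small RNAs and to 0.63, 0.67 and 0.57 without control replicate 1, control replicate 2 or *Rnmt* cKO replicate 2, where it no longer passed the threshold. For a pair of other small RNAs the interaction test of edgeR across all genes was passed. *Rpph1* had -0.60 and 0.35, a difference of 0.95 (adjusted p = 0.016), and *Rnu12* -0.47 and 1.41, a difference of 1.81 (adjusted p = 0.014). Of the 5 tested small RNAs of their list with promoters of their own, 2 passed, against 1 when scaled to the other small RNAs or without *Rnmt* cKO replicate 1 or 2, and none without control replicate 1 or control replicate 2. The other snoRNA genes had a median of 0.92 in the same comparison, with 14 of 95 higher and none lower (edgeR, adjusted p under 0.05). Of all genes, 3.24% were higher and 6.57% lower. These snoRNA values are given with scaling to all genes only. Scaling to the other small RNAs moved the median of all genes from 0.04 to -0.38, with 30 of 10668 genes higher and 891 lower. Groups of 3 libraries were too small to look for single libraries that stand apart by a fixed rule.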

How the results depend on the processing

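Over the alternatives, the log2 difference of *Snord118* ranged from 1.58 to 2.12 in total RNA and from 2.80 to 4.06 in RPF, and that of *Snord13* from 1.96 to 2.498 and from 2.23 to 3.19. Of the values of the 7 RNAs under the alternatives, 270 kept their direction and side of the threshold, 15 turned, 10 newly passed and 6 no longer passed. With no filter, the RPF difference of *Rn7sk* was 0.81 with an SE of 0.12, against 0.85 with an SE of 0.40 in the main fit. Scaled to the other small RNAs, the total RNA differences of *Rmrp* (-0.20) and *Vaultrc5* (-0.15) no longer passed, and the difference was 0.12 for *Rn7sk*, which was not past the threshold either, 0.26 for *Rny1* and 0.30 for *Rny3*, and the interaction of *Rny3* was -0.25. The interaction of *Rmrp* no longer passed in that setting (0.32) or without control replicate 1 (0.63), control replicate 2 (0.67) or *Rnmt* cKO replicate 2 (0.57). RPF differences near 0 also turned. That of *Rmrp* was -0.011 with counts without regard to strand. That of *Rny3* was -0.033 with no filter, -0.0026 without regard to strand and -0.018 with a replicate block. With one library left out, *Rmrp* ranged from -0.0077 to 0.20, *Rny1* from -0.062 to 0.42, *Rny3* from -0.21 to 0.21 and *Vaultrc5* from -0.19 to 0.29 in RPF.

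The log2 difference between the polymerases in total RNA was 2.46 without *Rn7sk* and also without *Rn7sk* and *Vaultrc5*, and 2.30 without *Rn7sk* and *Rmrp*, a setting chosen after the values were seen. With one library left out it ranged from 2.20 to 2.27 in total RNA and from 2.59 to 3.46 in RPF. Counts of calls scaled to the other small RNAs were added after the values were seen. All genes gave 6601 higher and 707 lower in total RNA, 1019 and 480 in RPF, and 30 and 891 in the interaction, and the protein lists gave 91 and 1, 1 and 0, and 0 and 21. That scaling shifted the median of all genes by 0.49 in total RNA, which bears on these counts by construction. Scaled to all genes, 346 were higher and 701 lower in the interaction. The higher genes numbered 214 with no filter, and with one library left out they ranged from 122 to 367 and the lower genes from 415 to 812. Of the genes of the protein lists, leaving one library out gave 10 to 15 lower in total RNA, 8 to 16 higher and 12 to 16 lower in RPF, and 0 to 2 higher and 11 to 19 lower in the interaction, where 1 was higher with library size without TMM, with no filter and with a replicate or animal block. The cause of these changes was not tested.

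The replicate block changed the call of 1 of the 7 RNAs, *Snord118* in the interaction (1.96, SE 0.55), as did the animal block (1.81). Same-numbered libraries of the genotypes had deviations correlated at -0.48 to -0.17 in total RNA and -0.12 to 0.28 in RPF. With the replicate block, 2455 genes were higher and 2751 lower in total RNA, 1596 and 1636 in RPF and 313 and 635 in the interaction. With the animal block, the interaction gave 426 higher and 777 lower, against 346 and 701 in the main fit. In RPF, 4123271 counts in the shallowest library limit the low RNAs most.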
